A study of Mus musculus with 19 samples.

Results

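These results describe the transcriptome of the mouse dorsal hippocampus at rest, read from the 4 control homecage libraries of a series of 19. They were chosen by their label alone, and no measured value entered the choice. All 4 came from male C57BL/6J mice aged 2 to 4 months, kept in the homecage, from the experiment labelled experiment 2, and none carried DN, the transgene for a dominant-negative Nr4A receptor (Nr4ADN) whose carriers and control littermates the series compares. The study asks whether chaperones of the endoplasmic reticulum act as effectors of memory consolidation, and the homecage libraries are its resting state. They differed in a further transgene: the first 2 replicates lacked it (tTA-), while the other 2, numbered 3 and 4, carried it (tTA+). tTA is the tetracycline transactivator, a protein that drives transgenes placed behind a tet promoter, and the labels give neither the promoter that drives it nor whether a library holds 1 animal or a pool. The closest other libraries are the 4 control SOR libraries of the same experiment (1 tTA-, 3 tTA+). SOR is a condition given by its abbreviation only. These libraries are used here for a comparison with the homecage libraries, in a further fit of the tTA difference and in the scaling of counts. The labels call the libraries separate samples but name no animals or preparation days, so p-values measure only the spread between these samples, which may be technical. RNA was total RNA depleted of ribosomal RNA, so non-coding transcripts without a poly(A) tail were kept.

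The dorsal hippocampus is a folded sheet in which dentate granule cells send mossy fibres to CA3 pyramidal cells, CA3 cells project to CA1, and a small CA2 field lies between them. Pyramidal and granule cells release glutamate, scattered interneurons release GABA, and astrocytes, oligodendrocytes, microglia and blood vessels make up the rest of the tissue. Fast excitation runs through AMPA receptors, the calcium that triggers synaptic plasticity enters through NMDA receptors, and calmodulin with its kinases and phosphatase reads that calcium.

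Levels are given on 2 scales. CPM is counts scaled to 1000000 per library, corrected by TMM (a factor that makes the bulk of genes comparable between libraries). CPM per kb is that value divided by the merged exon length of the gene, and only this scale is used to set genes against each other. Where 4 values stand in a row, they are the levels in replicates 1, 2, 3 and 4, and unless CPM alone is written they are CPM per kb. Orders within a list are those on merged exon length. With the mean transcript length in its place, 16 of 49 lists of at most 20 genes had another leading member. The libraries held 29271465, 41821234, 66991576 and 44585098 counts in replicates 1 to 4, so that 3 counts, the limit below which a gene is treated as at the floor, correspond to 0.0439 to 0.10 CPM. Any 2 of them differed by more than counting noise (chi-square per degree of freedom 5.17 to 34.7), so none was the same library sequenced again. Separate preparations of the same RNA could also differ by more than counting noise, so this does not show that the animals differed. Replicate 2 stood apart from the other 3 in short transcripts and was highest in Ttr, a choroid plexus RNA, as given below. In bulk tissue, fewer cells of a type and less RNA per cell cannot be told apart.

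The single RNA with the highest mean CPM was Rn7sk, the 7SK small nuclear RNA that holds the elongation factor P-TEFb in reserve, at 10988, 7035, 11178 and 11560.2 CPM in replicates 1 to 4. Replicate 2 was the lowest library. The sequence is printed because no other gene had as high a mean CPM; in replicate 2 Malat1 stood above it. The RNA, as annotated in GENCODE M21, is 331 bases long and lies on the minus strand at chr9:78175303-78175633 (GRCm38). Its first 120 bases, chr9:78175514-78175633, are printed 5′ to 3′. The capitals mark the letters GATC, which occur 3 times in the whole RNA, each time in this stretch. The first part of 7SK is known to carry GAUC repeats that bind the HEXIM proteins.
Rn7sk: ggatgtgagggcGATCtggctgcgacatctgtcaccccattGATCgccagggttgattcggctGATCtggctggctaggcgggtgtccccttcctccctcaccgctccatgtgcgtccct

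Promoters of strongly expressed genes were compared with those of undetected genes, and 4 are printed to show the letters counted. Each is printed 5′ to 3′ and is a RefSeq window on GRCm38.p6 of 250 bases before to 50 bases after a gene's start. Capitals mark TGACGTCA, the full cyclic AMP response element, and TATAAA, the TATA box. Tubb2a encodes a beta-tubulin (chr13:34077959-34078258, minus strand), Gpm6b a neuronal and glial membrane proteolipid (chrX:166238693-166238992, plus strand) and Chgb the granule protein chromogranin B (chr2:132781392-132781691, plus strand). Cga, the shared alpha subunit of the pituitary glycoprotein hormones (chr4:34893529-34893828, plus strand), had 0 counts in all 4 libraries.
Tubb2a: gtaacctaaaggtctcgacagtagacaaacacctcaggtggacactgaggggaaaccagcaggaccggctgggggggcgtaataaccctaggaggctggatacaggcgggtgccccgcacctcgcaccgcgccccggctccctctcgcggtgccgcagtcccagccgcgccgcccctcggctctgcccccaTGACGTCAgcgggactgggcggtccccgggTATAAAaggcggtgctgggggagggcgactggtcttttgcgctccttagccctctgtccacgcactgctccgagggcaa
Gpm6b: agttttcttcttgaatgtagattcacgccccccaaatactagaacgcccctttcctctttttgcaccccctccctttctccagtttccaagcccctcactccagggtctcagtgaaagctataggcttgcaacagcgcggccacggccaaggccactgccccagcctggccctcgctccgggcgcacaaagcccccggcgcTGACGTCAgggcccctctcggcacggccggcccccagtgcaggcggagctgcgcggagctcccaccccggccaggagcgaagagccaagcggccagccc
Chgb: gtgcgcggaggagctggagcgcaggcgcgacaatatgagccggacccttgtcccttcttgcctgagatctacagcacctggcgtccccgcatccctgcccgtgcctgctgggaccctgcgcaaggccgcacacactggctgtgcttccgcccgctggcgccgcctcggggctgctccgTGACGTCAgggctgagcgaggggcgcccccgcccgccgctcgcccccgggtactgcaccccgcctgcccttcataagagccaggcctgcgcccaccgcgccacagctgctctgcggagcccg
Cga: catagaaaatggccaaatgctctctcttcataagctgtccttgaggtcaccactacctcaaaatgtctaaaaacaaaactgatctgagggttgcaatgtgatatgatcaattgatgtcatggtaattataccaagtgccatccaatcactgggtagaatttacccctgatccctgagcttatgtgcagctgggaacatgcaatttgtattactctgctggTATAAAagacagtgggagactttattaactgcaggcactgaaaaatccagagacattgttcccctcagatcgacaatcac

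The first base of TGACGTCA lay 59 bases before the start in Tubb2a, 49 in Gpm6b and 72 in Chgb, and the TATA box began 29 bases before it in Tubb2a and 30 in Cga. Among protein-coding genes with a single RefSeq window, TGACGTCA (a palindrome, so both strands read alike) was held by 6 of 53 genes ranked 1 to 100 by CPM per kb (11.3%, Wilson 95% interval 5.29 to 22.6). The share was 5.66% in the ranks after these up to 1000, 3.29% in the other genes at or above 1 CPM per kb, 1.33% below that and 0.882% in genes with at most 3 counts in each library, against 2.39% of all 13800. The share fell from each class to the next, but the interval of the first class holds the 5.66% of the next, so that step is not resolved. Counted over every window of every gene, the first class came to 6.67%, and the order of the classes was the same. TATAAA, read on either strand, had another order: 13.2%, 8.21%, 6.04%, 13.5% and 30.3% from the first class to the last, against 13.7% of all. Base composition differed between the classes, though not in the order of the TGACGTCA share. The median ratio of observed to expected CpG was 0.759, 0.816, 0.787, 0.364 and 0.144 from the first class to the last. Its part in the motif shares was not tested.

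A wide range of genes was read. Of 21780 protein-coding genes, 11839 (54.4%) had a mean of at least 1 CPM per kb, 4596 reached 10, 251 reached 100 and 4823 (22.1%) had at most 3 counts in each library. The 100 genes with most counts took 16.1%, 15.7%, 15.6% and 15.8% of all counts in replicates 1 to 4. Over all biotypes 15124 genes reached 1 CPM per kb. With the mean transcript length in place of the merged exons the number was 16494.

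By CPM the leading genes included Rn7sk, Malat1, Eef1a1, Slc1a2, Sptan1, Gm26917, Kif5a, Ppp3ca and Actb. Malat1, a nuclear long non-coding RNA, stood at 9573, 9559.9, 9054 and 9854 CPM. Slc1a2, the main glutamate transporter of astrocytes, stood at 2672, 3241, 2757 and 2634 CPM, and replicate 2 was its highest library. Kif5a, a kinesin motor of axonal transport, stood at 2401, 2531, 2527 and 2483 CPM. Gm26917, a lincRNA on chromosome 17 with no role stated here, was highest in replicate 1 (3417, 2305, 2514 and 2401 CPM). The spectrin Sptan1, part of the membrane skeleton, had a mean of 2683 ± 229 CPM (SD, n = 4).

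Per length, the strongest protein-coding gene was Eef1a1, the elongation factor that brings aminoacyl-tRNA to the ribosome, at 1229.7, 1084, 1287 and 1296 CPM per kb in replicates 1 to 4. Other leading genes were Calm2 (965 ± 115, SD, n = 4), Actb (871 ± 21.9, beta-actin), Calm3 (837 ± 78.3), Cpe (829.9 ± 58.3, the carboxypeptidase that trims neuropeptide precursors) and Rplp1 (668 ± 62.8, a ribosomal stalk protein). Cst3, the secreted protease inhibitor cystatin C, stood at 613, 485, 672 and 697 CPM per kb and was lowest in replicate 2. Sparcl1, a secreted astrocyte protein (598 ± 21.9), and Apoe, the main lipid carrier of brain (589 ± 71.2), stood next. Actb was above Cpe in all 4 libraries, and Calm3 overlapped with both.

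Protein-coding genes took 95.1% ± 0.300 (SD, n = 4) of the counts and lincRNAs 1.85% ± 0.0579. The class called misc_RNA, led by Rn7sk, took 1.43%, 0.877%, 1.37% and 1.38%, and replicate 2 lay below the other 3. Processed pseudogenes took 0.269% ± 0.0381, a share that depends on how reads shared with parent genes were counted. Detection also differed between classes: 14771 of 21780 protein-coding genes, 700 of 4797 lincRNAs, 915 of 2631 antisense genes and 102 of 1507 snoRNAs had at least 10 counts in every library. Among protein-coding genes, 55.3% of those on autosomes, 44.2% of those on the X and 5 of 183 on the Y reached 1 CPM per kb. The genes that did so had medians of 7.35 CPM per kb on autosomes and 7.75 on the X.

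Marker lists of 21 cell types and neighbouring regions were read next, as a check of the labelled tissue, and no defining marker was at 0 in all libraries. All 8 pan-neuronal markers were present, from Rbfox3, the nuclear protein NeuN, at 14.1 ± 0.592 CPM per kb to Snap25, a SNARE protein of transmitter release, at 230.0, 229, 253 and 266. The 10 astrocyte markers summed to 1275, 1233, 1329.9 and 1321 CPM per kb in replicates 1 to 4, led by Glul, glutamine synthetase (506 ± 25.8), with the transcription factor Sox9 lowest (2.27 ± 0.476). The 7 markers of glutamatergic neurons summed to 879, 861, 781 and 853, from Nrgn, a calmodulin-binding protein of spines, down to the transcription factor Neurod2 (33.6 ± 2.15). Oligodendrocyte markers summed to 1025, 1034, 1215 and 1136, with both tTA+ libraries above both tTA- libraries and with Opalin, a myelin membrane protein, lowest (12.5 ± 1.35). The summed levels order lists of different sizes and genes, and do not measure numbers of cells.

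Markers of the other cell types stood lower. The 10 microglial markers summed to 191, 172, 214 and 214 CPM per kb and were all at or above 1, with the receptor Trem2 lowest (2.51 ± 0.304). So were the 9 endothelial markers, led by the tight junction protein Cldn5 (30.7, 23.5, 27.2 and 24.9) and with the cadherin Cdh5 lowest (1.88 ± 0.244), and all 6 of oligodendrocyte precursors, led by the transcription factor Olig1 (35.9 ± 2.53) and with the proteoglycan Cspg4 lowest (1.43 ± 0.118). Ependymal markers, of the ciliated cells lining the ventricles, ran from Tmem212 (5.10, 6.02, 8.85 and 7.57) to Rsph1 (2.29 ± 0.391). Mural cell markers ran from Vtn, vitronectin (29.0 ± 1.13), down to Tagln at 0.130 ± 0.0283, which shares most of its exon length with another gene. Meningeal fibroblast markers stayed low, from Dcn, decorin, at 2.89, 2.61, 3.60 and 1.97 to Col1a1, a fibrillar collagen chain, at 0.452 ± 0.0950. Of the markers for immature neurons and dividing cells, Neurod1 stood at 4.71 ± 0.198, Dcx, doublecortin, at 1.16, 1.55, 1.92 and 1.57, the proliferation marker Mki67 at 1.09, 1.44, 0.786 and 0.718 and Eomes, which marks neuronal progenitors, at 0.161, 0.179, 0.574 and 0.402. All 4 of these stood below 5 CPM per kb in every library.

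**Figure D1:**
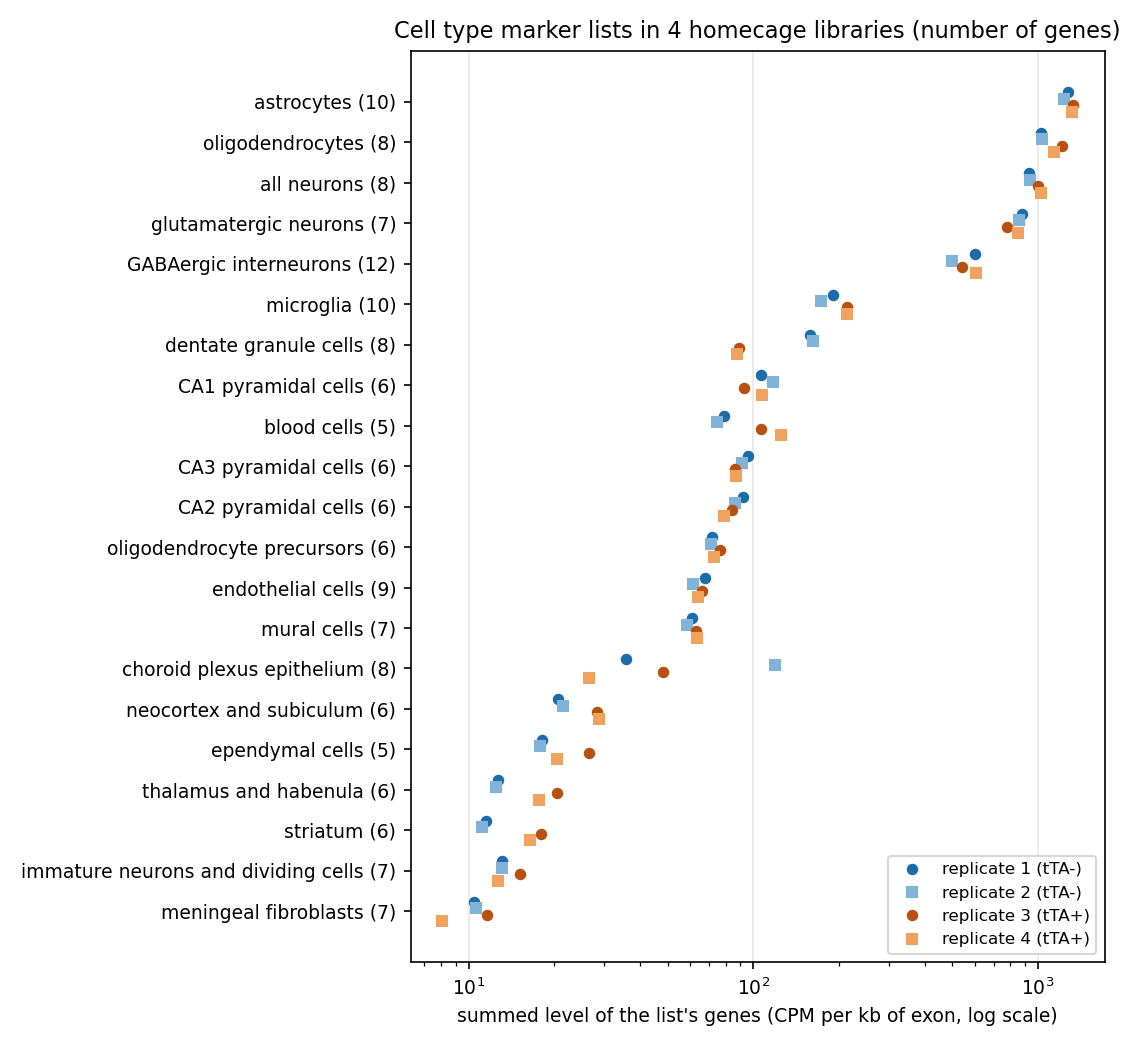
Summed CPM per kb of each cell type marker list (log axis) in each homecage library, with the number of genes in brackets. Points are single libraries; the dentate granule list sits at 158 and 162 in the tTA- libraries and at 89.3 and 87.9 in the tTA+ libraries, and the choroid plexus list of replicate 2 lies at 119 against 26.5 to 48.3 in the others.

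Markers of choroid plexus, blood and neighbouring regions differed between the libraries. Ttr, transthyretin, the leading product of choroid plexus epithelium, stood at 29.0, 109.9, 41.9 and 21.2 CPM per kb. Replicate 2 was above the other 3, and the whole choroid plexus list of 8 genes summed to 35.8, 119, 48.3 and 26.5, with 4 of 8 members at or above 1 CPM per kb. Without Ttr the other 7 summed to 6.74, 9.24, 6.40 and 5.28, so most of the difference between libraries was Ttr. The defining markers Folr1 (0.758, 0.984, 0.720 and 0.582) and Otx2 (0.0873, 0.326, 0.513 and 0.275), and the water channel Aqp1 (0.127, 0.364, 0.162 and 0.161), were below 1 in every library, replicate 2 included. The 4 haemoglobin genes and Alas2, markers of red blood cells and led by Hbb-bs (39.0, 33.4, 55.1 and 64.4), summed to 79.1, 74.3, 106 and 125 and were higher in both tTA+ libraries. The lists of thalamus and habenula (12.7, 12.5, 20.5 and 17.7), striatum (11.5, 11.1, 18.0 and 16.5) and neocortex and subiculum (20.7, 21.5, 28.3 and 28.6) were also higher in both tTA+ libraries than in both tTA- libraries. In the last of these most of the difference was Tbr1, a cortical transcription factor (2.38, 2.41, 7.31 and 7.77), and without it the other 5 summed to 18.3, 19.1, 20.9 and 20.8. In the first list, Tac2, a tachykinin precursor, stood at 1.04, 0.744, 2.83 and 2.49 and Prkcd, a protein kinase C of thalamic neurons, at 5.24, 5.35, 9.67 and 6.75. Lef1 (0.170 ± 0.0241) and Tcf7l2 (0.190 ± 0.0233), other thalamic markers, were low in every library. The highest striatal marker was Ppp1r1b, the phosphatase regulator DARPP-32 (5.90, 5.32, 9.004 and 9.63). Adora2a, which marks one class of striatal output neurons, stood at 0.306, 0.396, 0.354 and 0.291. The other neocortical markers ran from Fezf2, a transcription factor of deep-layer neurons (6.59, 6.06, 5.56 and 6.33), to Cux2 of upper layers (1.51 ± 0.124). Over all genes at or above 1 CPM the 2 tTA genotypes did not overlap in 55.0%. The part of neighbouring tissue in the levels of other genes was not tested.

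The hippocampal fields were all represented, and one of them separated the libraries. C1ql2, a secreted protein of mossy fibre synapses, stood at 46.7, 41.5, 9.76 and 7.84 CPM per kb, Prox1, the transcription factor that fixes granule cell identity, at 13.1, 15.5, 8.43 and 8.10, and Dsp, desmoplakin, at 7.41, 9.37, 3.64 and 3.48. In each of these both tTA- libraries lay above both tTA+ libraries. By edgeR's quasi-likelihood test with Benjamini-Hochberg adjustment over 22617 genes, 5 of the 8 dentate markers were lower in tTA+ (C1ql2, Prox1, Dsp, Stxbp6 and Glis3) and none higher, against 2.26% of all genes called lower. For C1ql2 the log2 difference, tTA+ minus tTA-, was -2.32 (SE 0.11, adjusted p = 1.84e-05), and for Prox1 -0.79 (SE 0.08, adjusted p = 0.00115). In a fit on all 8 libraries of experiment 2, SOR included and with exposure in the model, Prox1 was not called (adjusted p = 0.350); this fit is given below as the 8-library fit. The other 3, the calcium buffer Calb1 (26.4, 24.9, 19.9 and 23.4), the lactase gene Lct (16.9, 20.8, 16.9 and 18.4) and the exchange factor Dock10 (15.1, 17.5, 13.5 and 12.8), did not pass. Stxbp6 (27.8, 27.6, 14.6 and 11.5) was not called without replicate 1 or replicate 2 (adjusted p = 0.283 and 0.356 by edgeR), and the calls of the other 4 held with any 1 library left out. The median over the list was -0.81, against 0.0017 over all genes tested.

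The other fields differed less between the libraries. CA1 markers summed to 107, 117, 93.0 and 108 CPM per kb and were led by Mpped1, a metallophosphoesterase-domain protein (35.4 ± 2.64); Wfs1, an endoplasmic reticulum protein rich in CA1, stood at 18.0, 22.5, 18.9 and 22.7. CA2 markers summed to 92.3, 86.6, 84.4 and 79.2, led by Rgs14, a regulator of G protein signalling known to limit plasticity in CA2 (35.4, 31.7, 25.0 and 28.1), with the kinase Map3k15 lowest (1.47 ± 0.419). Of the 18 CA1, CA2 and CA3 markers 1 was called, a share near the 4.17% over all genes. This was Rgs14, lower in tTA+ (-0.33, SE 0.08, adjusted p = 0.0466 by edgeR), and the call ended without replicate 3 (adjusted p = 0.451) and in the 8-library fit (adjusted p = 0.9998). CA3 markers summed to 96.1, 91.2, 86.5 and 87.3, from the BCL2-family protein Bok (48.4 ± 3.97) and the copine Cpne4 (23.3, 23.6, 23.8 and 24.8) down to Coch (2.44 ± 0.446).

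**Figure D2:**
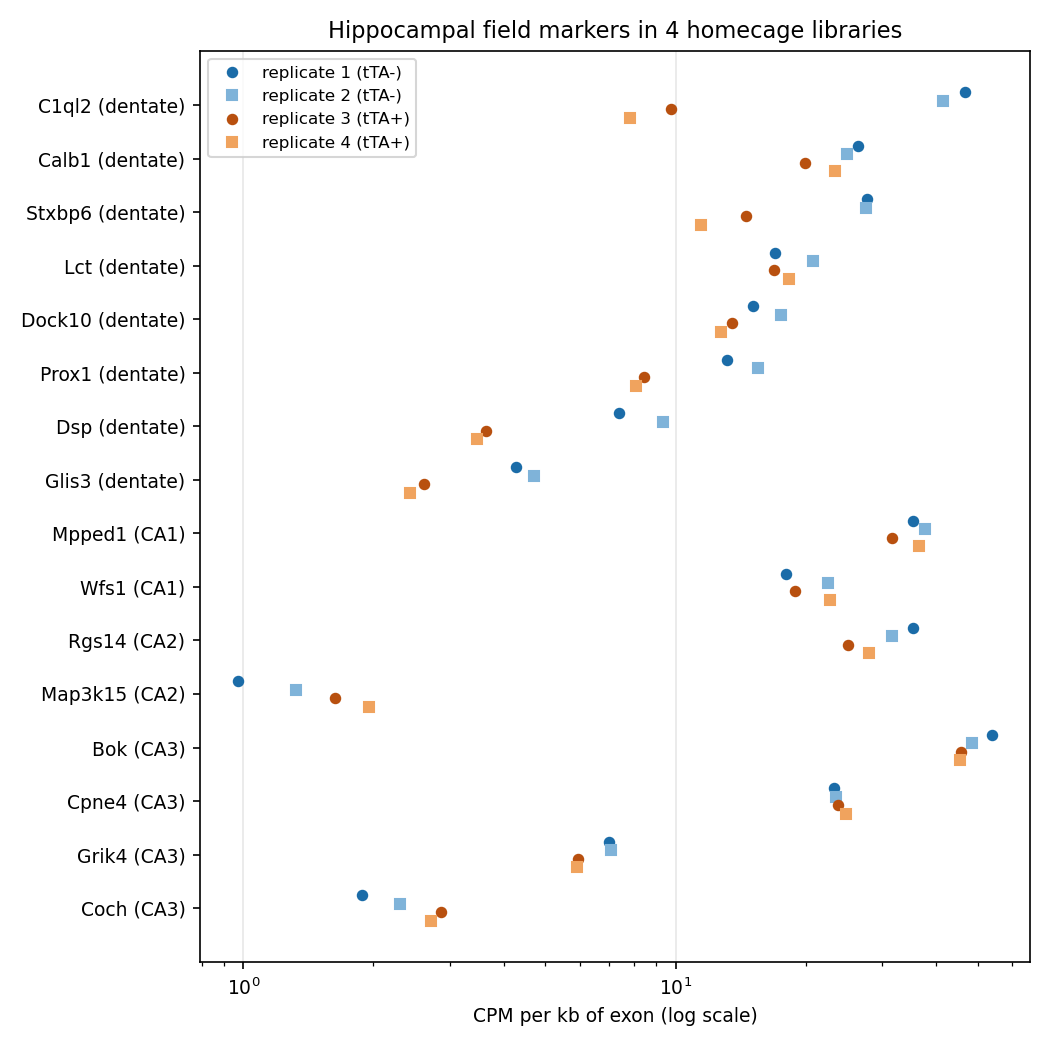
CPM per kb (log axis) of the markers of dentate granule cells and of the CA1, CA2 and CA3 fields named in the text, in each homecage library. For C1ql2, Stxbp6, Prox1, Dsp and Glis3 both tTA- libraries lie to the right of both tTA+ libraries, and for Cpne4 the 4 points nearly coincide.

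The AMPA receptor was carried by 2 subunits. Gria1 stood at 212, 215, 180.0 and 185 CPM per kb in replicates 1 to 4 and Gria2, the subunit that keeps calcium out of the channel, at 103, 109.6, 97.0 and 97.6. Gria3 (25.6 ± 2.72) and Gria4 (14.4 ± 0.792) were lower. Gria1 exceeded Gria2 in every library on merged exon length, but the order of these 2 turned with mean transcript length (349 against 381); Gria3 stood below both and Gria4 below Gria3 on either length. Among the 12 auxiliary subunits, Cnih2, a cornichon that slows AMPA receptor closing, led at 211, 182, 189.6 and 219.6, followed by Cnih3 (25.9 ± 1.32) and Cacng8, the TARP gamma-8 typical of hippocampus (14.3 ± 1.52). Cacng2, stargazin, stood at 3.67 ± 0.217 and Cacng4 was the lowest at 2.81 ± 0.225. All 12 were above 1 CPM per kb.

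NMDA receptor RNA was led by Grin2a (52.7, 64.1, 47.7 and 53.6 CPM per kb) and Grin2b (37.8, 47.2, 37.6 and 39.9), the glutamate-binding subunits of the adult forebrain, with Grin2a higher in each library. Grin1, the subunit every NMDA receptor needs, stood at 20.3, 20.6, 18.3 and 20.2, below both on this scale and on mean transcript length. Grin2c (8.44 ± 0.329) and Grin3a (4.52 ± 0.610) were lower, and Grin2d (0.501 ± 0.0564) and Grin3b (0.0798 ± 0.0131) did not reach 1. Kainate receptor subunits ranged from Grik5 (15.3 ± 1.44) and Grik2 (12.1, 12.7, 9.04 and 8.78) to Grik1 (2.65 ± 0.245), with Grik2 above Grik5 on mean transcript length (47.3 against 39.1). Grik4, a kainate subunit of CA3 mossy fibre synapses, stood at 6.49 ± 0.658. The metabotropic receptors were led by Grm5, which couples to calcium release (55.2, 61.0, 54.6 and 54.5), and by Grm3 (33.1, 34.1, 33.6 and 33.6), whose 4 libraries were almost equal. Grm2 stood at 6.24, 7.30, 4.73 and 4.89 and was lower in both tTA+ libraries (-0.49, SE 0.09, adjusted p = 0.0160 by edgeR), a call that ended without replicate 3 (adjusted p = 0.0586) and in the 8-library fit (adjusted p = 0.371). Of 7 metabotropic receptors tested, 1 was called higher in tTA+ and 2 lower, Grm2 among these, against 1.91% and 2.26% of all genes. Grm6, the receptor of retinal bipolar cells, had 3, 0, 3 and 0 counts.

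Of the 17 GABA-A receptor subunits, 12 were at or above 1 CPM per kb. Gabra5, the alpha subunit of extrasynaptic receptors rich in hippocampus, stood at 72.8, 70.6, 62.6 and 70.4 and Gabrb2, a beta subunit, at 46.4, 49.6, 42.5 and 42.9. Gabra5 was above Gabrb2 in every library on merged exon length, and below it on mean transcript length (82.2 against 155). Gabrd, the delta subunit of dentate granule cells, stood at 13.0, 12.6, 10.6 and 10.5. Gabra6, typical of cerebellar granule cells, had 0, 0, 1 and 2 counts, and the rho subunits Gabrr1 (0.125 ± 0.0375) and Gabrr2 (0.342 ± 0.0654) of the retina were low. The 17 subunits together summed to 366, 379.7, 353 and 364, a CV of 3.05%. Of 15 subunits tested, edgeR called 3 higher in tTA+ and 0 lower, against 1.91% and 2.26% of all genes. With upper quartile scaling 2 were called higher and 1 lower. Both GABA-B subunits were present, Gabbr1 at 99.1, 104, 105 and 105 and Gabbr2 at 32.7, 38.0, 30.4 and 34.0.

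**Figure D3:**
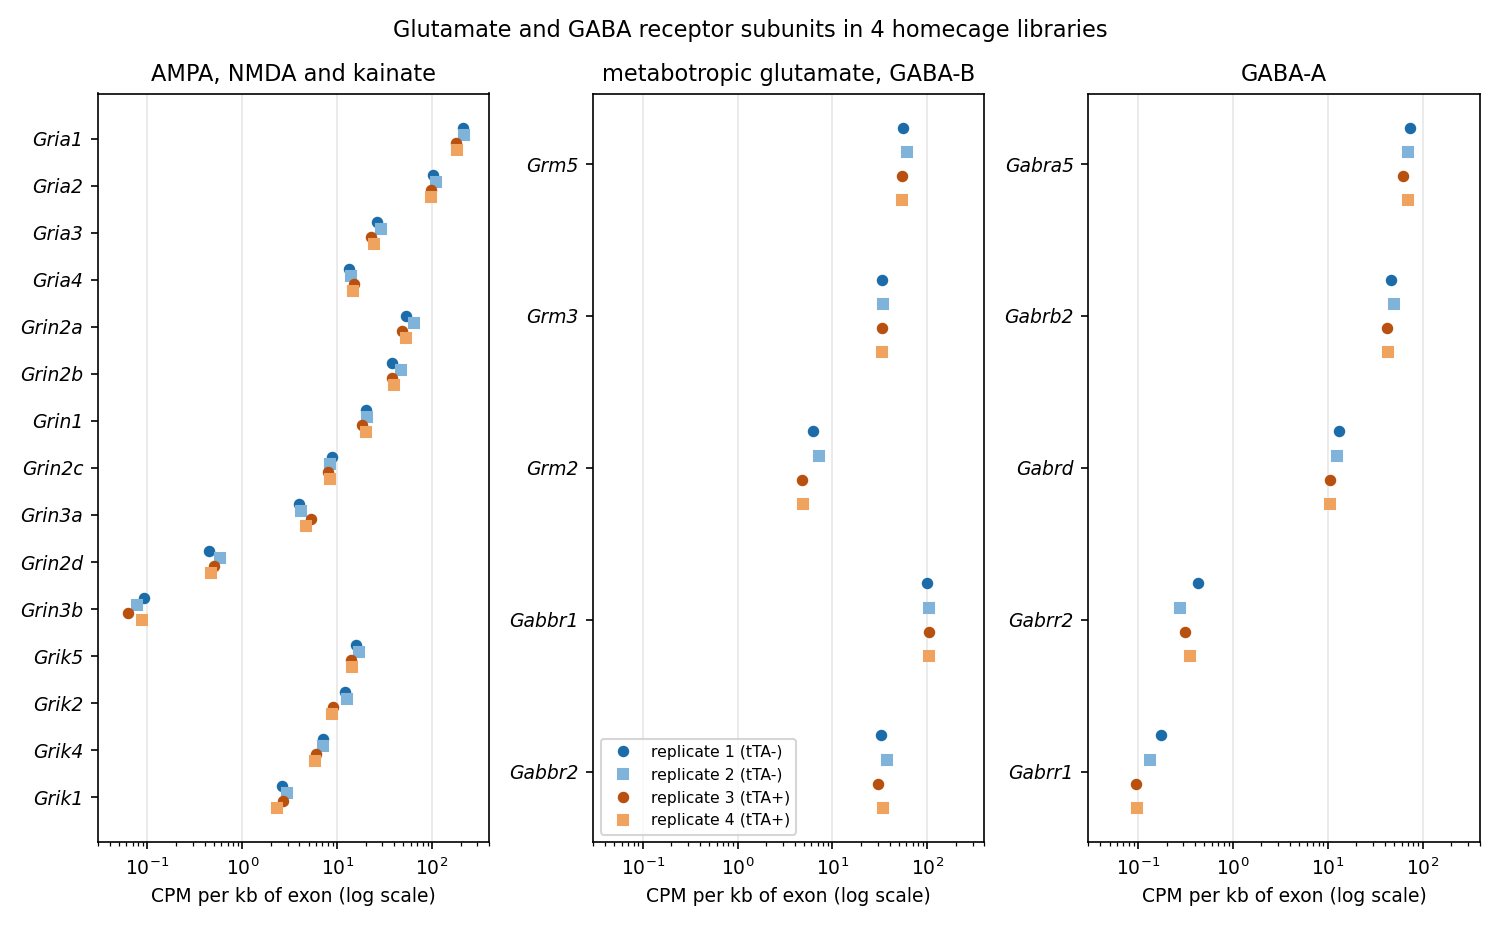
CPM per kb (log axis) of the glutamate and GABA receptor subunits named in the text, in each homecage library, for subunits with a mean of at least 0.05. The levels within 1 gene family span more than 2 orders of magnitude for NMDA and GABA-A subunits, while the 4 libraries of most genes lie within a narrow band.

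Interneuron markers ranged over nearly 2 orders of magnitude. Cck, a neuropeptide also made by pyramidal cells, led at 195, 139, 171 and 208 CPM per kb, then the peptide somatostatin, Sst, at 182, 138, 121 and 149.7 and neuropeptide Y, Npy, at 58.3, 59.5, 44.6 and 61.8. The libraries of Cck and Sst overlapped, and on mean transcript length Gad1 stood above Sst (189 against 148). Gad1, which makes GABA, stood at 42.0, 44.3, 55.0 and 49.7, Pvalb, parvalbumin, at 32.8, 22.1, 31.2 and 31.4 and Vip, vasoactive intestinal peptide, at 4.06 ± 0.691. Gad2 (22.0, 23.6, 34.1 and 27.8) was higher in both tTA+ libraries (0.45, SE 0.09, adjusted p = 0.0260 by edgeR), but not without replicate 1, 2 or 3 (adjusted p = 0.513, 0.522 and 0.294) or in the 8-library fit (adjusted p = 0.858). Calb2, calretinin, stood at 8.15, 5.99, 19.1 and 11.3, with replicate 3 highest. The lowest marker was Lhx6, a transcription factor of interneurons from the medial ganglionic eminence (2.28 ± 0.235).

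Calmodulin genes were among the strongest of the tissue. Calm2 stood at 912, 832, 1026 and 1089.6 CPM per kb and Calm3, which encodes the same protein, at 945, 769, 791 and 845, while Calml3, a calmodulin-like gene, was at the floor. Their libraries overlapped, and on mean transcript length Calm3 was the higher (2075 against 1576). Nrgn, neurogranin, which holds calmodulin at rest, stood at 229.8, 201, 172 and 177, and Camk2n1, an inhibitor of CaMKII, at 79.4, 70.3, 59.9 and 72.4. Camk2n2, a related inhibitor, was the lowest of these regulators (8.92 ± 1.595). Nrgn and Camk2n1 were higher in replicate 1 than in the other libraries. Of the kinases, Camk2a (173, 195, 152 and 164) and Camk2b (147, 154, 109.6 and 114) were the main CaMKII subunits, and Camk2d stood at 1.76, 1.71, 3.09 and 2.34. Of 11 kinases 3 were called higher in tTA+ and 1 lower, against 1.91% and 2.26% of all genes, and without replicate 3 none was called. Camk2d was among the higher (0.65, SE 0.11, adjusted p = 0.0126 by edgeR), though not without replicate 1, 2 or 3 (adjusted p = 0.487, 0.574 and 0.0539) or in the 8-library fit (adjusted p = 0.518). Camk2b was lower in tTA+ (-0.43, SE 0.07, adjusted p = 0.00875 by edgeR), though not without replicate 3 (adjusted p = 0.0740) or in the 8-library fit (adjusted p = 0.783). Camk2a was not called (-0.22, adjusted p = 0.172). Camkv, a kinase-like calmodulin-binding protein of spines, stood at 175 ± 17.8, and on mean transcript length both Camk2a (627) and Camk2b (533) were above it (320.2). Calcineurin, the calcium-activated phosphatase, was read mainly from its catalytic subunit Ppp3ca (250.4, 245, 218 and 231) and its regulatory subunit Ppp3r1 (185, 193, 193 and 204), and its summed level had a CV of 2.60%. The testis form Ppp3r2 stood at 0.169 ± 0.0319.

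Ion channels of neurons were well above those of muscle and sensory nerve. Among sodium channel pores Scn2a (59.8, 65.5, 60.4 and 63.0 CPM per kb) stood above Scn8a (25.5 ± 2.12), Scn1a (25.2 ± 0.671) and Scn3a (13.5 ± 1.62). The muscle channel Scn4a (0.0150 ± 0.00153) and the sensory neuron channel Scn10a (0.00851 ± 0.0152) were near the floor. Cacna1e, an R-type calcium channel, led the calcium pores (26.1, 31.0, 24.8 and 25.9), and Cacna1s, the channel of skeletal muscle, stood at 0.0194 ± 0.0110. Hcn2, a channel of the pacemaker current, stood at 18.5, 19.5, 19.0 and 20.9, and Hcn4, known from the heart, was lowest of its family (0.235 ± 0.0466). Sodium pump subunits were even between libraries, with sums of 733, 748, 737 and 751. The beta subunit Atp1b1 led at 298 ± 9.38, while Atp1a4 of sperm stood at 0.114 ± 0.0555.

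The sums of vesicle fusion genes and of synapsins had the smallest CVs of all lists. The 11 vesicle fusion genes summed to 703, 704, 691 and 703 CPM per kb, a CV of 0.860%, and synapsins with vesicle glycoproteins to 364, 369, 363 and 372, a CV of 1.11%. These compare with a CV of 3.26% for the sum over all protein-coding genes. Single members varied more than the sums. The first list ran from Snap25 down to Cplx3, a retinal complexin (0.952, 0.600, 0.927 and 1.55), and the second from the vesicle glycoprotein Sv2b (85.1 ± 2.95) to the synapsin Syn3 (1.17 ± 0.0880). Cplx2, a complexin that clamps SNARE complexes, was the 1 gene called between tTA genotypes among the 19 of both lists, a share near the 4.17% over all genes. It stood at 217, 222, 176 and 172, lower in both tTA+ libraries (-0.33, SE 0.07, adjusted p = 0.0223 by edgeR). The call ended without replicate 3 or replicate 4 (adjusted p = 0.158 and 0.313) and in the 8-library fit (adjusted p = 0.626). Syt1, the calcium sensor of fast release, stood at 151, 159, 143 and 153 and Syt11 at 158 ± 6.17, with Syt1 the higher on mean transcript length (422 against 277). Syt7, a sensor of slower release, stood at 30.2, 34.7, 21.9 and 21.2 and Syt10 at 7.08, 6.87, 4.28 and 4.02, and both were called lower in tTA+ by edgeR (adjusted p = 0.00295 and 0.00505), Syt10 also in the 8-library fit (adjusted p = 0.0192) and Syt7 not (0.206). Syt8 had 0 counts in all 4 libraries. Postsynaptic scaffolds ranged from Dlg3, a relative of PSD-95 (41.6 ± 1.84), over Dlg4, the scaffold PSD-95 itself (19.0, 21.3, 18.7 and 18.3), and Homer1 (18.6, 19.8, 19.8 and 20.3), down to Shank1 (6.09 ± 1.06). On mean transcript length Dlg4 stood above Dlg3 (139 against 70.3). Slc17a7, the vesicular glutamate transporter of hippocampal pyramidal cells, stood at 136, 138, 116 and 129.7, against 4.78, 5.04, 6.79 and 7.07 for Slc17a6, the transporter typical of thalamus, and 1.55 ± 0.0596 for Slc17a8.

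Of the receptors for acetylcholine, catecholamines, opioids, cannabinoids and adenosine, few stood above 10 CPM per kb. Cnr1, the cannabinoid receptor of Cck interneurons, was the strongest at 47.7, 52.8, 54.1 and 57.9 CPM per kb, then Adora1, the inhibitory adenosine receptor (27.6, 31.1, 24.1 and 26.0), and Chrm1, the main muscarinic receptor of pyramidal cells (20.7, 23.2, 18.5 and 19.8). Chrm5, a scarcer muscarinic receptor, stood at 1.28, 1.92, 5.19 and 7.28, higher in both tTA+ libraries (1.93, SE 0.22, adjusted p = 0.00141 by edgeR), and the nicotinic subunit Chrnb4 was lowest (0.0257 ± 0.0158). Of 11 muscarinic and nicotinic genes tested, 3 were called higher in tTA+, Chrm5 among them, and 1 lower, against 1.91% and 2.26% of all genes. Adra1d led the adrenergic receptors (16.1, 15.9, 9.27 and 10.4) and was lower in both tTA+ libraries (-0.70, SE 0.09, adjusted p = 0.00244 by edgeR), a call absent from the 8-library fit (adjusted p = 0.673). The dopamine receptors Drd1 (2.70, 2.93, 2.79 and 2.73) and Drd5 (3.31, 3.50, 2.03 and 2.21) stood above Drd2 at 0.592, 0.421, 1.24 and 0.578 in every library, and Drd3 and Drd4 were near the floor. Drd5 was called lower in tTA+ (adjusted p = 0.0111 by edgeR), though not in the 8-library fit (adjusted p = 0.0871). Of 12 dopamine and adrenergic genes tested, 2 were called higher in tTA+ and 2 lower, the lower being Adra1d and Drd5. The nociceptin receptor Oprl1 (15.5 ± 2.21) led the opioid receptors, Oprd1, the delta receptor, stood at 3.61 ± 0.486, Oprm1, the mu receptor, at 0.450, 0.417, 0.503 and 0.441 and Oprk1 at 0.107 ± 0.0310. Cnr2, the cannabinoid receptor of immune cells, was near the floor (0.0862 ± 0.0144).

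Glial families were led by a few genes each. Gja1, connexin 43 of astrocytes, stood at 16.4, 16.3, 20.3 and 19.1 CPM per kb, Gjb6, connexin 30, at 14.7, 13.9, 16.7 and 16.8 and the neuronal connexin Gjd2 at 1.81 ± 0.312, and Gja5, an arterial connexin, was lowest (0.131 ± 0.0176). Apoe stood at 663, 494, 615 and 584, Clu, clusterin, at 202, 179, 202 and 208 and the glial lipocalin Apod at 55.0 ± 5.43, while the liver apolipoproteins Apoa1 (0.141 ± 0.0487) and Apob (0.00816 ± 0.00430) were near the floor. The astrocyte glutamate transporters Slc1a2 (215 ± 21.4) and Slc1a3 (84.6, 84.9, 91.7 and 87.2) exceeded the neuronal Slc1a1 (14.0 ± 0.642). The glial GABA transporter Slc6a11 stood at 16.3 ± 1.88. Replicate 2 was the lowest of the 4 for Apoe and Clu.

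Most genes of the families of basic cell machinery, and most protocadherins, were read. Of 92 ribosomal protein genes 87 were at or above 1 CPM per kb, of 105 respiratory chain and ATP synthase genes 99, of 39 proteasome genes 35 and of 69 protocadherins 58, against 54.4% of all protein-coding genes. The leading members were Rps3a1, a small-subunit ribosomal protein (338, 249, 328 and 328), Cox8a of cytochrome oxidase (385, 418, 541 and 565), Psmc1, a proteasome ATPase (79.1 ± 8.43), and Pcdh20, a non-clustered protocadherin (61.0, 59.5, 56.0 and 65.8). Tubulins were led by Tuba1a (376, 387, 519 and 523), which was higher in both tTA+ libraries (0.45, SE 0.07, adjusted p = 0.00505 by edgeR), though not in the 8-library fit (adjusted p = 0.9998). Ribosomal proteins summed to 6799, 5579, 7301 and 7394 and the respiratory chain to 6027, 5098, 6425 and 6561, and in both replicate 2 was lowest. Near-identical copies and pseudogenes exist for many ribosomal proteins and histones, so values of single members are uncertain. Of 98 histone genes 57 reached 1, and their sum was 863, 719, 925 and 931, led by Hist1h4h (87.5 ± 16.4).

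Families of other organs were almost silent. Of 1134 olfactory receptor genes, 1057 had at most 3 counts in each library and only Olfr287 (0.928, 1.25, 1.25 and 1.21) reached 1 CPM per kb. Of 295 vomeronasal receptor genes 276 were at the floor and none reached 1, with Vmn2r87 the highest (0.600 ± 0.0925). Of 38 taste receptor genes 28 were at the floor, and only Tas1r1 (1.10 ± 0.0718), a subunit of the umami receptor, reached 1. Of 113 keratins and keratin-associated proteins, 7 reached 1, led by Krt222 (12.2, 11.6, 15.4 and 15.6). These compare with 22.1% of all protein-coding genes at the floor.

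Long non-coding RNAs were dominated by Malat1 (1371, 1369, 1297 and 1411 CPM per kb). All 13 that were matched were at or above 1. Within this list Peg13, an imprinted transcript, followed at 41.1, 40.9, 43.5 and 45.4, with Snhg11 (36.7 ± 1.85) and Gas5 (26.8 ± 2.00) behind; on mean transcript length Snhg14 (266) stood above all 3. Rmst was lowest (1.54 ± 0.241). Meg3 stood at 9.20, 11.1, 10.8 and 10.7 and Rian at 17.2, 15.9, 20.3 and 20.7, both from the imprinted Dlk1-Dio3 cluster, and Neat1, the paraspeckle scaffold, at 2.61, 2.84, 2.28 and 2.18. Among small structured RNAs, Rpph1, the RNA of RNase P, stood at 4492, 2443, 3988 and 3956 and Rn7s1, a signal recognition particle RNA, at 1606, 868, 1419 and 1285. Rny1, a Y RNA, had 1, 1, 1 and 3 counts. Rpph1 and Rn7s1 share part of their exon length with other genes and their values are uncertain. As for Rn7sk, replicate 2 was the lowest library in each.

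The spread between the 4 libraries was larger than counting error. Over 16593 genes with a mean of at least 1 CPM and at least 10 counts in each library, the median CV was 9.10% (10th to 90th percentile 3.61 to 23.1), against 3.63% from counting alone. It fell from 18.8% at 1 to 3 CPM to 6.52% at 30 to 100 CPM and was 6.34% above 300 CPM, where counting accounted for 0.727%. The median absolute log2 difference was 0.0761 between the 2 tTA+ libraries, 0.137 between the 2 tTA- libraries and 0.145 to 0.179 across genotypes. Of the same genes, 663 (4.00%) spanned at least 2-fold from lowest to highest library. Without replicate 2 the number was 372 and without replicate 1 432.

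**Figure D4:**
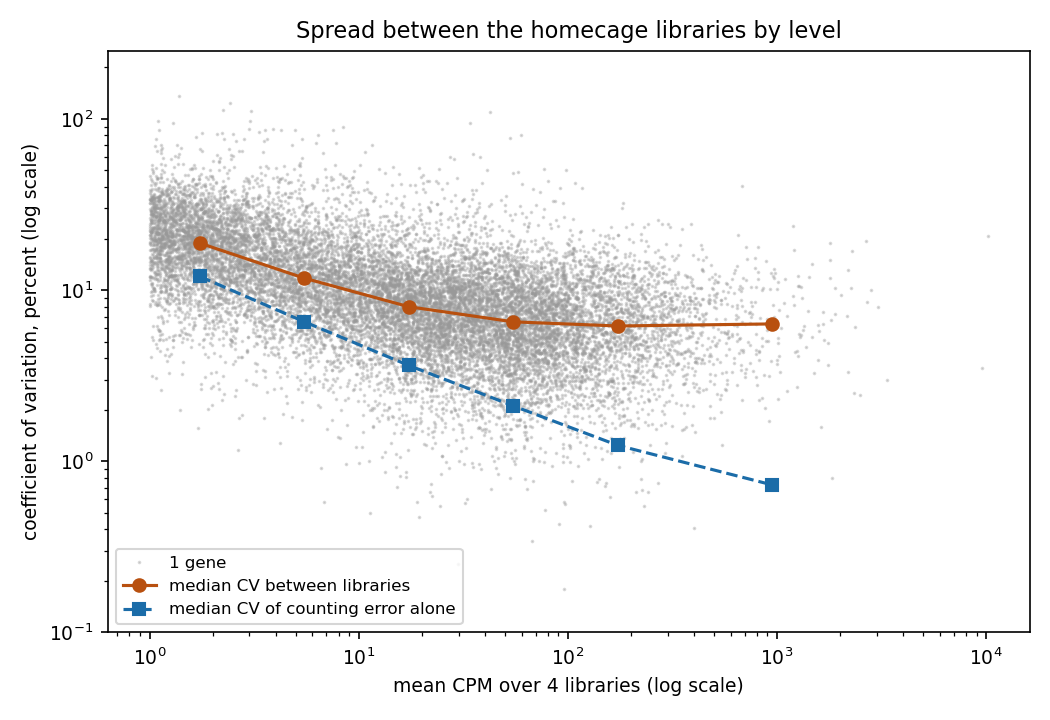
Coefficient of variation between the 4 homecage libraries (percent, log axis) against mean CPM (log axis), for genes with a mean of at least 1 CPM. Orange circles join the median in 6 ranges of level, blue squares the median expected from counting alone; the distance between them widens from 18.8% against 12.02% at 1 to 3 CPM to 6.34% against 0.727% above 300 CPM.

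The narrowest genes were nearly identical in all 4 libraries. Ascc3, a helicase subunit, stood at 95.4, 95.5, 95.7 and 95.8 CPM and Ltn1, the ribosome quality control ligase listerin, at 127, 128, 128 and 128. Kif21a, a kinesin (403 ± 1.65 CPM), Aebp2, a partner of Polycomb repressive complex 2 (67.7 ± 0.229), and Wdr77, a partner of the arginine methyltransferase PRMT5 (29.7 ± 0.0747), completed the 5; Wdr77 shares part of its exon length with another gene. They are the extremes of 16593 genes and were picked as such.

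The 10 widest ranges followed more than 1 pattern. Replicate 3, then replicate 4, was highest in Zic1 (9.91, 12.02, 79.7 and 34.6 CPM) and Zic4 (2.18, 3.98, 16.7 and 7.27), zinc finger factors known from septum and thalamus, and in Lbhd2 (0.636, 0.652, 7.83 and 3.10) and Ctxn3 (0.536, 1.12, 4.61 and 2.56), genes with no role stated here. Slc5a7, the choline transporter of cholinergic neurons, stood at 0.636, 0.862, 6.94 and 1.27 CPM, and Six3os1, a transcript antisense to Six3, at 0.335, 0.559, 2.66 and 0.803 CPM, each with replicate 3 alone high. Both tTA- libraries were the high ones in Pla2g2f, a secreted phospholipase (7.17, 7.66, 1.27 and 0.869 CPM), Mylk3, a myosin light chain kinase (6.36, 7.27, 1.04 and 0.914 CPM), and Krt9, a keratin (1.84, 3.38, 1.08 and 0.334 CPM). Col6a4, a collagen VI chain, was lowest in replicate 1 and highest in replicate 2 (0.335, 5.27, 2.11 and 2.30 CPM). Of the thalamic markers, Tac2 and Prkcd had the same order, with replicate 3 highest and replicate 4 next, while Slc17a6 and the striatal Ppp1r1b were highest in replicate 4 and Adora2a in replicate 2. The part of neighbouring tissue in the 10 ranges was not tested.

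Gene length separated replicate 2. Protein-coding genes with up to 0.5 kb of exon had a median log2 difference of -0.34 between replicate 2 and the mean of the other 3, those of 1 to 2 kb -0.22 and those over 10 kb 0.10. Replicate 1 stayed between -0.03 and 0.01. Replicates 3 and 4 ran the other way, but replicate 2 enters the mean they were compared with, so part of this is built in. Ribosomal proteins, the respiratory chain and the small RNAs are short genes and were lowest in replicate 2, while the long Slc1a2 was highest there. Whether length set those differences was not tested.

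**Figure D5:**
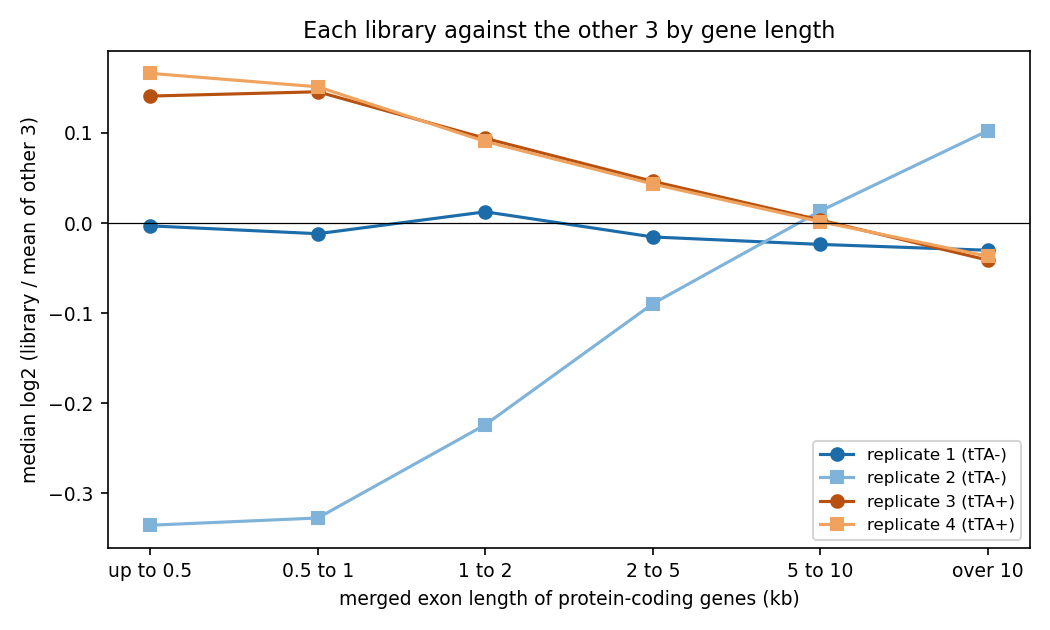
Median log2 ratio of each homecage library to the mean of the other 3 (vertical axis) for protein-coding genes in 6 ranges of merged exon length in kb (horizontal axis). Replicate 2 rises from -0.34 in the shortest genes to 0.10 in the longest; the fall of replicates 3 and 4 from 0.14 and 0.17 to -0.04 is partly built in, since replicate 2 is in the mean they are compared with.

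The tTA label went with part of the spread. The 2 tTA- and the 2 tTA+ libraries did not overlap in 55.0% of the genes at or above 1 CPM, and in 71.0% of those spanning 2-fold. With 2 libraries a side, labels without any effect would also separate part of the genes. These shares therefore do not measure an effect of genotype. edgeR called 944 of 22617 genes (4.17%) at an adjusted p under 0.05, 432 higher in tTA+ and 512 lower; with upper quartile scaling the split was 316 to 665. Higher in both tTA+ libraries were Tbr1 (13.1, 13.2, 40.1 and 42.6 CPM), the solute carrier Slc35f1 (41.0, 45.1, 108 and 113) and Hrk, a pro-apoptotic BCL2-family gene (61.2, 59.7, 125 and 121), with the adaptor Blnk and the carbonic anhydrase Car4. Lower were C1ql2, the hyaluronan-binding Cemip (40.2, 45.2, 13.8 and 14.4 CPM), the cation channel Trpc6 (112, 108, 50.02 and 50.5 CPM) and the release regulator Doc2b (52.2, 62.2, 17.9 and 19.5 CPM), with Mylk3. These 10 are the 5 with the smallest p in each direction of this same comparison, so their values describe the choice and are no further test. For Tbr1 the log2 difference was 1.65 (SE 0.08, adjusted p = 2.14e-05 by edgeR) and for Trpc6 -1.13 (SE 0.07, adjusted p = 3.24e-05).

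Of the families, 16 of 90 tested ribosomal protein genes, 11 of 103 respiratory chain genes and 5 of 14 tubulins were called higher in tTA+ and none lower, against 1.91% of all genes called higher. These counts moved with the library left out, as did the count over all genes. Without replicate 1, 2, 3 or 4 the ribosomal count was 76, 30, 8 and 6, the respiratory chain count 78, 18, 6 and 4, and the tubulin count 8, 8, 3 and 3. In the same 4 fits 2581 of 23669, 1539 of 23688, 190 of 23714 and 303 of 23729 genes in all were called higher. In such a fit the genotype left with 1 library is assumed to vary like the other. Without replicate 2, 1 ribosomal and 2 respiratory chain genes were called lower as well. The median log2 difference of ribosomal genes was 0.26 with all 4 libraries, 0.12 without replicate 2, the library low in short genes, and 0.40 without replicate 1. That of respiratory chain genes was 0.19, 0.07 and 0.33 in the same fits. The dentate count was 6, 5, 5 and 5 lower in the same 4 fits. With the SOR libraries added and exposure in the model, 82 genes were called, 4 of the 8 dentate markers (C1ql2, Dsp, Stxbp6 and Glis3) and none of the ribosomal, respiratory chain or tubulin genes among them. Of the regional lists, 3 of 6 thalamic, 2 of 6 striatal and 2 of 6 neocortical markers were higher in the 4 libraries, and 1, 0 and 1 with the SOR libraries added. Without replicates 1 to 4 in turn the thalamic count was 2, 2, 2 and 3, the striatal count 1, 1, 2 and 3, and the neocortical count 2, 2, 1 and 2. Genotype, dissection and library cannot be told apart with 2 libraries a side.

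Against the SOR libraries of the same experiment the homecage libraries differed in few genes. edgeR called 20 of 22305 genes (0.0897%), all lower in homecage. Plin4, a lipid droplet coat protein, stood at 4.49, 5.96, 4.03 and 4.59 CPM in the homecage libraries (log2 SOR minus homecage 2.10, SE 0.15, adjusted p = 0.000235 by edgeR), and Xbp1, a transcription factor of the unfolded protein response, at 82.1, 75.2, 84.7 and 84.3 (0.70, SE 0.08, adjusted p = 0.00879). The inducible chaperone Hspa1b (8.81, 9.25, 8.99 and 9.90), the glucocorticoid-induced Tsc22d3 (67.0, 59.5, 68.7 and 75.3) and the unnamed locus Gm19439 (3.58, 3.40, 4.07 and 4.12 CPM) completed the 5 with the smallest p. Among all the listed families and markers, Gjb6 was the single gene called (0.77, SE 0.12, adjusted p = 0.0426 by edgeR). With homecage replicate 1, 2, 3 or 4 left out the number of calls was 1, 1, 1 and 7, with 1 SOR library left out 2 to 50, and with DESeq2 116. The homecage group holds 2 tTA- and 2 tTA+ libraries and the SOR group 1 and 3, and with tTA genotype as a covariate 11 genes were called, 10 of them among the 20.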

How the data were processed

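Ribosomal-RNA-depleted total RNA was sequenced, and the authors deposited whole-number counts for 51789 genes in 1 table. Per the submitters' processing notes STAR, SAMtools 1.6, featureCounts 1.4.4 and mm10 were used; the annotation release, the use of strand and the treatment of multiply mapped reads are not given in the sources used here, so values of overlapping genes and near-identical copies are uncertain. No mitochondrially encoded gene was in the table.

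Counts were scaled with edgeR 4.0.16 (TMM over the 8 libraries of experiment 2; R 4.3.3) and divided by the merged exon length from GENCODE M21, which held 51596 of the identifiers. Genes were called by edgeR's quasi-likelihood test with Benjamini-Hochberg adjustment at 0.05 over all genes passing edgeR's filter on low counts, tTA+ against tTA- in the 4 homecage libraries and SOR against homecage in 8. The edgeR test was tested on simulated data, and DESeq2 1.42.0 was an alternative. Named genes were the 10 highest by CPM and by CPM per kb, the highest and lowest of each list (the highest of families by symbol) with any member whose role is described, the 10 widest and 5 narrowest ranges, and up to 5 of smallest p each way per test. Members and lists were chosen with earlier results of these data known. Intervals and the floor of 3 counts cover counting error only, since the reads carry no molecular identifiers and several may come from 1 molecule. Norad, Cyrano and Bc1 did not match by symbol and were not analysed here, and some members of the lists are not reported here.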

Additional observations from a re-analysis of the deposited data

Results flagged for a closer look

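Of 289 levels and shares given for the 4 homecage libraries, 19 had 1 library far from the other 3, which were close together; chance alone gives about 1 in 20. Replicate 2 was the one apart in 12, replicate 3 in 4, replicate 1 in 3 and replicate 4 in 0.

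Replicate 2 was low in Rn7sk (21253 CPM per kb, the others 33195 to 34925), in the sum of small structured RNAs (25401, the others 40307 to 41290) and in the share of counts in misc_RNA (0.877%, the others 1.37 to 1.43). It was also low in the ribosomal proteins Rplp1 (574 CPM per kb, the others 689.8 to 707) and Rps3a1 (249, the others 328 to 338), in Gas5 (23.8, the others 27.7 to 27.8), Glul (468, the others 514 to 522), Sparcl1 (566, the others 605 to 612) and Pvalb (22.1, the others 31.2 to 32.8). It was high in Aqp1, a choroid plexus marker (0.364, the others 0.127 to 0.162), in Grm5 (61.0, the others 54.5 to 55.2) and in the sum of glutamate and GABA transporters (565, the others 512 to 519). Short genes were lower and the longest genes higher in this library, and the part of length in these values was not tested.

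Replicate 3 was apart in Slc5a7 (1.23 CPM per kb, the others 0.113 to 0.225), Grin1 (18.3, the others 20.2 to 20.6), Scn10a (0.0312, the others at or near 0) and the sum of vesicle fusion proteins (691, the others 703 to 704). Replicate 1 was apart in Olfr287 (0.928, the others 1.21 to 1.25) and in the share of counts in processed pseudogenes (0.326%, the others 0.244 to 0.254). Calml3 is counted among the 19 only because replicate 1 had 2 counts (0.0471 CPM per kb) and the others 0; any count against 0 gives such a gap, which says nothing of the library.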

How the results depend on the processing

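The tTA comparison of the homecage libraries gave 944 calls with edgeR, and 1151 with DESeq2, 981 with upper quartile scaling (316 higher, 665 lower) and 953 with DESeq2's size factors. At an adjusted p under 0.1 it gave 1862, with no filter on low counts 2183, and with all 8 libraries of experiment 2 and exposure in the model 82, each of which is among the 944. With 1 library left out it gave 520 to 4713 calls: 4713 without replicate 1, 2877 without replicate 2, 520 without replicate 3 and 647 without replicate 4. The first 2 of these fits take their spread from the tTA+ pair alone, which is the closer pair. Of 43 genes named above that were called, 28 were called in all 4 of these fits and 17 with all 8 libraries; the calls lost were 5, 5, 13 and 5 without replicates 1 to 4.

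SOR against homecage gave 20 calls, and 35 at an adjusted p under 0.1, 36 with no filter, 116 with DESeq2, 1 to 50 with 1 library left out, 11 with tTA genotype as a covariate and 9 with a replicate block. Same-numbered libraries correlated at 0.0469, 0.391, 0.0454 and 0.127 in their deviations from the group means, so the numbers were not taken as a pairing. The number of genes spanning at least 2-fold was 663, 320 when at least 50 counts were asked of each library, and 372 to 498 with 1 library left out. The number of genes at or above 1 CPM per kb was 15018 to 21691 under all its alternatives, 15124 as reported. With only genes of at least 10 counts in every library, protein-coding genes took 95.2% of counts and the 100 strongest genes 15.9%.

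With mean transcript length, 312 of 430 levels and 55 of 58 list sums moved by more than 1 SD, by a median factor of 1.95 in genes at or above 1 CPM per kb, and 16 of 49 lists of at most 20 genes changed their leading member. Library totals in place of TMM moved 9 of 430 levels and 4 of 58 sums, DESeq2's size factors moved 0 levels. Leaving out 1 of 4 libraries cannot move a mean by 1 SD, so it is no check of the levels. List counts under every setting, leave-one-out calls of named genes and motif shares over all windows were chosen after seeing the data. With 29271465 counts in the smallest library, a gene below 0.10 CPM cannot be told from absence there.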
